A study of Mus musculus with 9 samples.

Results

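Transcripts of resident immune cells were followed through RNA sequencing of mouse small-intestinal crypts with and without Pcgf6. The 41 genes were chosen by name as markers of these cells, with earlier results of these data known, out of the 55341 genes in each deposited count file. They comprise 3 genes of nearly all leukocytes, 14 T cell and intraepithelial lymphocyte genes, 7 B and plasma cell genes, 12 macrophage and other myeloid genes, and 5 mast cell genes. A minimum count for testing was passed by 39 of them, and all except Mzb1 and Fcer1a were among those tested.

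The gut epithelium is never free of immune cells. Intraepithelial lymphocytes, mostly CD8 and gamma-delta T cells armed with granzymes, sit between the epithelial cells, while the lamina propria beneath holds IgA-secreting plasma cells, B cells, macrophages and mast cells. Crypt isolation strips the epithelium off this tissue, and crypt preparations can carry some of these neighbours along. Tuft cells, a chemosensory type of epithelial cell, also express some genes best known from leukocytes, among them Ptprc.

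PCGF6 is the subunit that defines one variant of Polycomb repressive complex 1, PRC1.6, a chromatin repressor. All mice were male, 8 to 12 weeks old and on a C57BL/6 background, and the study compared Pcgf6 knockout (KO) with wild-type (WT) crypts under each of 2 Cre drivers. With AhCre, which beta-naphthoflavone (BNF) switches on, there were 2 WT and 2 KO libraries; with Villin-CreERT2, an intestinal-epithelial driver that tamoxifen (TAM) switches on, there were 3 WT and 2 KO libraries. WT and KO mice of a driver carry the same inducing agent in their labels, so WT is an induced control. Titles date all crypts at 15 days after induction, while the series' design text and 1 line of each sample description say 7 days. Descriptions of Villin samples also name BNF where their titles name TAM. AhCre is driven by the Cyp1a1 promoter, active after induction in gut epithelium and other tissues. Nothing in the labels says whether the replicates came from separate mice, and the p-values then reflect only how far these libraries scatter, part of which may be technical.

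The libraries held 9263993 to 12377921 counts with AhCre and 6455098 to 8339149 with Villin-CreERT2. Levels are given as CPM, the count scaled to a common library total after correction by edgeR's trimmed mean of M-values (TMM), and 3 counts corresponded to 0.194 to 0.615 CPM. Pcgf6 itself read 14.1 and 10.1 CPM in AhCre WT against 7.20 and 5.90 CPM in AhCre KO, and 9.44 to 12.7 CPM in Villin WT against 3.07 and 2.47 CPM in Villin KO. Epithelial transcripts were present in every library: 11 epithelial genes summed to between 9113 and 29166 CPM. The 41 immune genes together took 0.0217% to 0.328% of a library's counts. These epithelial genes are not particular to crypts, so their sum does not test the crypt label. In bulk RNA, fewer cells of a type and less RNA per cell cannot be told apart.

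These immune transcripts set 2 Villin libraries apart, 1 of each genotype. The members took 0.308% of counts in Villin WT 3 and 0.328% in Villin KO 2, 0.0217% in Villin WT 2, and 0.0714% to 0.0994% in the other 6 libraries. Of the 41 genes, 36 were highest in Villin WT 3 or Villin KO 2, and 32 were lowest in Villin WT 2. Replicate spread within the Villin groups was wide for most members, and the 4 AhCre libraries were close to each other (0.0714% to 0.0899%). Haemoglobin and other red-cell genes, which mark blood, summed to 285 CPM in Villin WT 3 and 921 CPM in Villin KO 2 against 5.77 to 67.9 CPM elsewhere. All 5 of them were highest in Villin KO 2 and none was at 0 in any library, and the part of blood in the immune values was not tested.

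**Figure D1:**
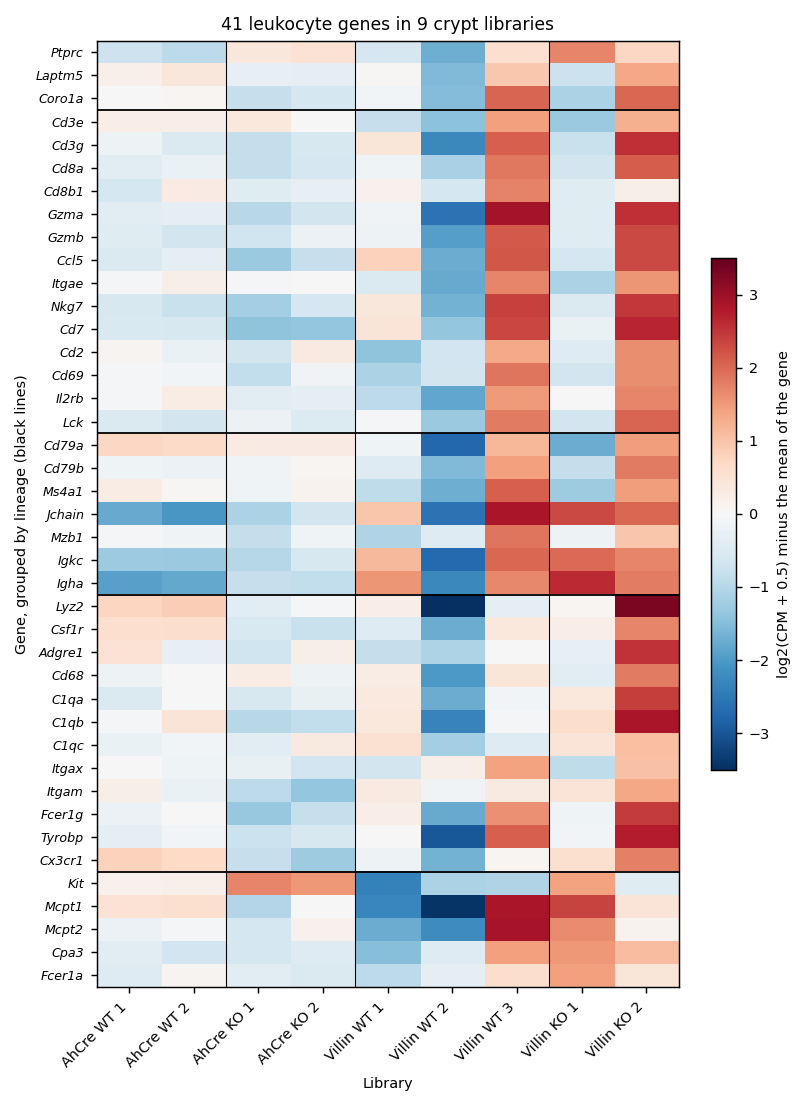
Log2(CPM + 0.5) of the 41 members (rows, by lineage) in the 9 libraries (columns), as the difference from each gene's own mean, with red above and blue below it. Most rows are reddest in Villin WT 3 or Villin KO 2 and bluest in Villin WT 2, where the members took 0.308%, 0.328% and 0.0217% of counts.

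Differences between genotypes were tested with edgeR's quasi-likelihood test on the counts of all 9 libraries, with Benjamini-Hochberg adjustment over 16250 genes, and a gene is said to have risen or fallen where the adjusted p was under 0.05. The AhCre comparison called 0.00615% of all genes and 0 of the 39 members, with 4 members at an unadjusted p under 0.05 (3.53% of all genes). The Villin comparison called 3.33% of all genes higher and 2.88% lower, against 1 member higher (Kit) and 0 lower. The average of both effects called 1.17% of genes and again Kit alone among the members. Most of the members' differences thus did not pass, and their values are given mainly as levels.

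With the 4 AhCre libraries analysed on their own, 12 of 38 tested members (31.6%) passed, against 6.43% of all genes. Higher in KO were 4 of them (3.62% of all genes), Kit, Ptprc, Igha and Jchain, and lower were 8 (2.82% of all genes), Lyz2, Cx3cr1, Csf1r, C1qb, Fcer1g, Itgam, Cd7 and Coro1a. Limma-voom with sample weights and DESeq2 were run only on all 9 libraries. In their AhCre comparison, limma-voom called 5 of these 12 (Kit and Ptprc higher, Cx3cr1, Csf1r and Itgam lower), against 5.61% of all genes. DESeq2 called 0 members there, against 0.455% of all genes. Villin-CreERT2 on its own called 1 of 36 members, Kit, against 1.89% of all genes. The AhCre calls thus differed between the fit of all libraries and that of AhCre alone.

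Among genes carried by nearly all leukocytes, Ptprc was higher in the KO libraries of both drivers, an order that Laptm5 and Coro1a did not have. Ptprc encodes CD45, the tyrosine phosphatase on the surface of haematopoietic cells, and lies at chr1:138062861-138175708 on the minus strand (GRCm38). It measured 21.1 and 18.3 CPM in AhCre WT against 46.9 and 50.0 CPM in AhCre KO. In the other driver it measured 23.2, 10.5 and 53.2 CPM in Villin WT against 117 and 59.1 CPM in Villin KO. Both KO groups lay above their WT libraries without overlap, an order seen in 23.4% of all genes with AhCre and in 14.5% with Villin-CreERT2. The log2 fold change in edgeR was 1.30 (SE 0.58, adjusted p = 1.0) with AhCre, 1.61 (SE 0.52, adjusted p = 0.0788) with Villin-CreERT2 and 1.45 (SE 0.39, adjusted p = 0.110) on average. In the AhCre-alone fit it was 1.32 (SE 0.18, adjusted p = 9.91e-05). The average of Ptprc passed with DESeq2 (adjusted p = 0.00665) and limma-voom (adjusted p = 0.00882). Without Villin WT 3 or Villin KO 2 the Villin value of Ptprc passed (adjusted p = 0.0186 and 0.0433, edgeR), as did the average (adjusted p = 0.0204 and 0.0380). Neither passed without any of the other 7 libraries, where the Villin value was lowest, at 1.06 (adjusted p = 0.344), without Villin KO 1. With Villin-CreERT2 Ptprc passed with DESeq2 (adjusted p = 0.0152) and not with limma-voom (adjusted p = 0.136).

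Laptm5 encodes a lysosomal membrane protein of haematopoietic cells. Its levels were 17.2 and 19.9 CPM in AhCre WT against 12.2 and 11.8 CPM in AhCre KO, and 15.5, 4.87 and 29.1 CPM in Villin WT against 8.81 and 38.9 CPM in Villin KO. Its log2 fold change in edgeR was -0.63 (SE 0.70, adjusted p = 1.0) with AhCre and 0.55 (SE 0.64, adjusted p = 0.618) with Villin-CreERT2, and the Villin value was -0.90 (adjusted p = 0.444) without Villin KO 2. Coro1a, an actin-binding coronin of leukocytes, was 23.6 and 24.6 CPM in AhCre WT against 13.3 and 15.2 CPM in AhCre KO, and 21.7, 7.83 and 97.7 CPM in Villin WT against 10.7 and 95.8 CPM in Villin KO. Both genes were lower in AhCre KO than in AhCre WT, whereas in the Villin libraries they were high in Villin WT 3 and Villin KO 2 irrespective of genotype. Coro1a shares exon positions with a gene on the other strand, as 8 of the 41 members do with some other gene, and the library protocol keeps no strand.

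The count ratio of Ptprc to Coro1a put a number on this split. There were 0.891 and 0.745 Ptprc counts for each Coro1a count in AhCre WT and 3.52 and 3.30 in AhCre KO. The ratio was 1.07, 1.34 and 0.544 in Villin WT but 11.0 in Villin KO 1 and 0.617 in Villin KO 2. Villin KO 1 had the highest Ptprc of all libraries and a Coro1a level below that of 2 Villin WT libraries.

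Tuft markers were likewise higher in the KO libraries of both drivers. A list of 16 tuft genes summed to 205 and 217 CPM in AhCre WT and 1232 and 1168 CPM in AhCre KO. It summed to 145, 99.7 and 155 CPM in Villin WT, 4473 CPM in Villin KO 1 and 638 CPM in Villin KO 2. All 16 rose in the Villin comparison, where 3.33% of all genes were called higher, and in the average, where 1.17% were called. With AhCre all 16 were higher with 0 passing in edgeR (adjusted p of at least 0.252). Il25, a cytokine of tuft cells, was at 0 in Villin WT 1 and Villin WT 3, and no other entry was at 0. The part of tuft cells in the Ptprc difference was not tested.

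**Figure D2:**
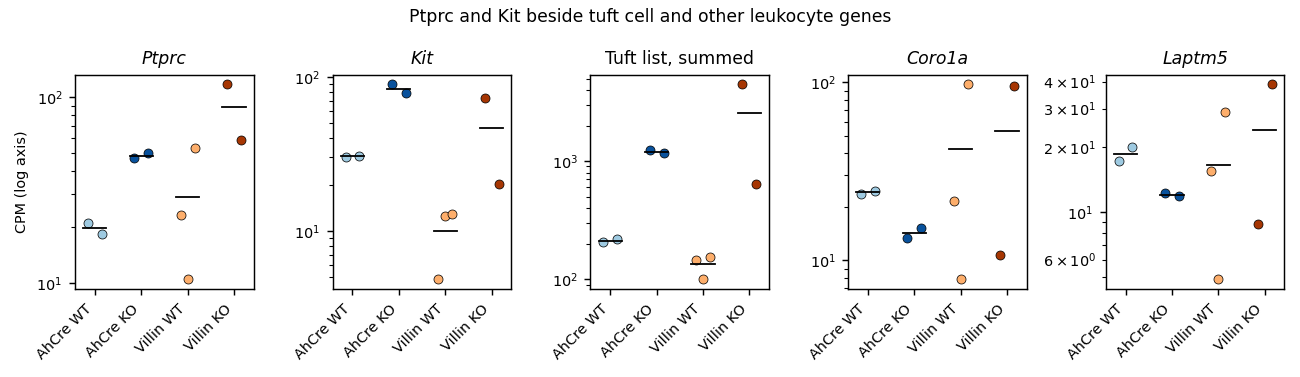
CPM on log axes of Ptprc, Kit, the summed 16 tuft markers, Coro1a and Laptm5, by group, with a point per library and a line at the group mean. The KO points of Ptprc, Kit and the tuft sum lie above the WT points of their driver, while those of Coro1a and Laptm5 lie below them with AhCre and overlap them with Villin-CreERT2.

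T cell and intraepithelial lymphocyte genes were highest in the same 2 Villin libraries, 1 of each genotype. All 14 had their 2 highest Villin levels in Villin WT 3 and Villin KO 2, and 0 of 14 passed in the KO comparisons fitted over all libraries with edgeR, DESeq2 or limma-voom, or had an unadjusted edgeR p under 0.05 there. In the AhCre-alone fit Cd7 passed, as lower. Their median log2 fold change was -0.37 with AhCre, beside -0.0048 over all genes, and 0.50 with Villin-CreERT2, beside -0.18. The Villin median turned to -1.53 without Villin KO 2 and grew to 2.02 without Villin WT 3. Their sum was 354 and 362 CPM in AhCre WT, 244 and 303 CPM in AhCre KO, 503, 111 and 2688 CPM in Villin WT and 324 and 2488 CPM in Villin KO, and Gzma made up 51.9% of it.

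The signalling core of the T cell receptor was measured through Cd3e, Cd3g and Lck. Cd3e, the epsilon chain of the CD3 complex, read 10.5 and 10.5 CPM in AhCre WT against 11.6 and 9.02 CPM in AhCre KO, and 4.85, 2.95 and 24.7 CPM in Villin WT against 3.28 and 21.7 CPM in Villin KO. For Cd3g, the gamma chain, the values were 18.9 and 14.9 CPM in AhCre WT against 11.8 and 14.2 CPM in AhCre KO, and 28.6, 4.10 and 92.5 CPM in Villin WT against 12.3 and 127 CPM in Villin KO. Cd3e barely moved between the AhCre genotypes, and both chains were several times higher in Villin WT 3 and Villin KO 2 than in the other Villin libraries. Lck, the kinase that starts receptor signalling, had 7.49 and 6.79 CPM in AhCre WT against 9.30 and 7.63 CPM in AhCre KO, and 10.4, 4.10 and 39.7 CPM in Villin WT against 6.76 and 45.7 CPM in Villin KO. It was the 1 T cell gene with both AhCre KO libraries above both AhCre WT libraries, by little.

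The CD8 coreceptor consists of alpha and beta chains, which differed in level. Cd8a, which forms the alpha-alpha homodimer typical of intraepithelial cells, was 13.9 and 15.1 CPM in AhCre WT against 9.78 and 11.7 CPM in AhCre KO, and 16.2, 7.95 and 65.7 CPM in Villin WT against 11.3 and 80.2 CPM in Villin KO. Cd8b1, the beta chain of the conventional heterodimer, was 0.646 and 1.64 CPM in AhCre WT against 0.808 and 0.954 CPM in AhCre KO, and 1.44, 0.641 and 5.39 CPM in Villin WT against 0.819 and 1.54 CPM in Villin KO. Per kilobase of merged exon, Cd8a exceeded Cd8b1 in all 4 groups, by 3.99 against 0.771 CPM in AhCre WT and 12.6 against 0.796 CPM in Villin KO. There were 0.0192 Cd8b1 counts per Cd8a count in Villin KO 2 and 0.0463 to 0.109 in the other 8 libraries. The Cd8b1 log2 fold change in edgeR was -0.36 (SE 0.87, adjusted p = 1.0) with AhCre and -1.0 (SE 0.86, adjusted p = 0.490) with Villin-CreERT2, and the Villin value changed sign without Villin WT 3 (to 0.27, adjusted p = 0.844).

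Granzymes, the chemokine Ccl5 and Nkg7 belong to the cytotoxic programme of these cells. Gzma, a serine protease of cytotoxic granules, was 164 and 169 CPM in AhCre WT against 108 and 136 CPM in AhCre KO, and 195, 34.8 and 1607 CPM in Villin WT against 157 and 1256 CPM in Villin KO. Gzmb, the granule protease that triggers apoptosis in target cells, was 27.8 and 23.6 CPM in AhCre WT against 22.9 and 32.4 CPM in AhCre KO, and 33.1, 9.36 and 165 CPM in Villin WT against 27.7 and 188 CPM in Villin KO. Gzma was far higher in Villin WT 3 than in any AhCre library, and its 2 top libraries were of opposite genotypes. Ccl5, a chemokine made by activated CD8 cells, reached 50.8 and 58.9 CPM in AhCre WT against 29.1 and 41.5 CPM in AhCre KO, and 127, 21.3 and 329.7 CPM in Villin WT against 47.5 and 363 CPM in Villin KO. Nkg7, a cytotoxic granule membrane protein, reached 13.4 and 11.3 CPM in AhCre WT against 8.49 and 13.0 CPM in AhCre KO, and 26.4, 6.03 and 107 CPM in Villin WT against 13.9 and 112 CPM in Villin KO. Per kilobase, Gzma led at 165 CPM in AhCre WT, with 57.1 for Ccl5, 19.9 for Cd7 and 17.9 for Gzmb.

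Residence and adhesion genes also had their highest levels in Villin WT 3 and Villin KO 2. Itgae encodes CD103, the integrin that binds E-cadherin on epithelial cells, and stood at 14.1 and 16.9 CPM in AhCre WT against 13.9 and 14.8 CPM in AhCre KO, and 10.2, 3.98 and 49.1 CPM in Villin WT against 6.56 and 43.5 CPM in Villin KO. The early activation and tissue-retention marker Cd69 stood at 2.39 and 2.31 CPM in AhCre WT against 1.13 and 2.25 CPM in AhCre KO, and 0.899, 1.41 and 10.4 CPM in Villin WT against 1.43 and 8.79 CPM in Villin KO. Itgae thus held between 13.9 and 16.9 CPM across the 4 AhCre libraries while the Villin libraries ran from 3.98 to 49.1 CPM. Cd7, an immunoglobulin-family receptor of T cells, stood at 22.7 and 22.5 CPM in AhCre WT against 12.2 and 12.7 CPM in AhCre KO, and 46.0, 12.7 and 169 CPM in Villin WT against 28.5 and 215 CPM in Villin KO. Both AhCre KO libraries were below both AhCre WT libraries for Cd7, and its log2 fold change in the AhCre-alone fit was -0.84 (SE 0.19, adjusted p = 0.0115).

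Cd2 and Il2rb complete the T cell genes. Cd2, an adhesion molecule, was 1.42 and 1.04 CPM in AhCre WT against 0.647 and 1.73 CPM in AhCre KO, and 0.180, 0.641 and 4.05 CPM in Villin WT against 0.819 and 5.09 CPM in Villin KO. Il2rb, the beta chain of the IL-2 and IL-15 receptors on which these cells depend, was 6.07 and 7.68 CPM in AhCre WT against 4.69 and 4.94 CPM in AhCre KO, and 3.06, 1.41 and 18.5 CPM in Villin WT against 6.35 and 21.7 CPM in Villin KO. Il2rb gave log2 fold changes in edgeR of -0.51 (SE 0.89, adjusted p = 1.0) with AhCre and 0.91 (SE 0.81, adjusted p = 0.503) with Villin-CreERT2. The Villin value was -0.25 (adjusted p = 0.894) without Villin KO 2 and 2.69 (adjusted p = 0.0313) without Villin WT 3. It was higher in both Villin KO libraries than in Villin WT 1 and 2, and Villin WT 3 lay between them.

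**Figure D3:**
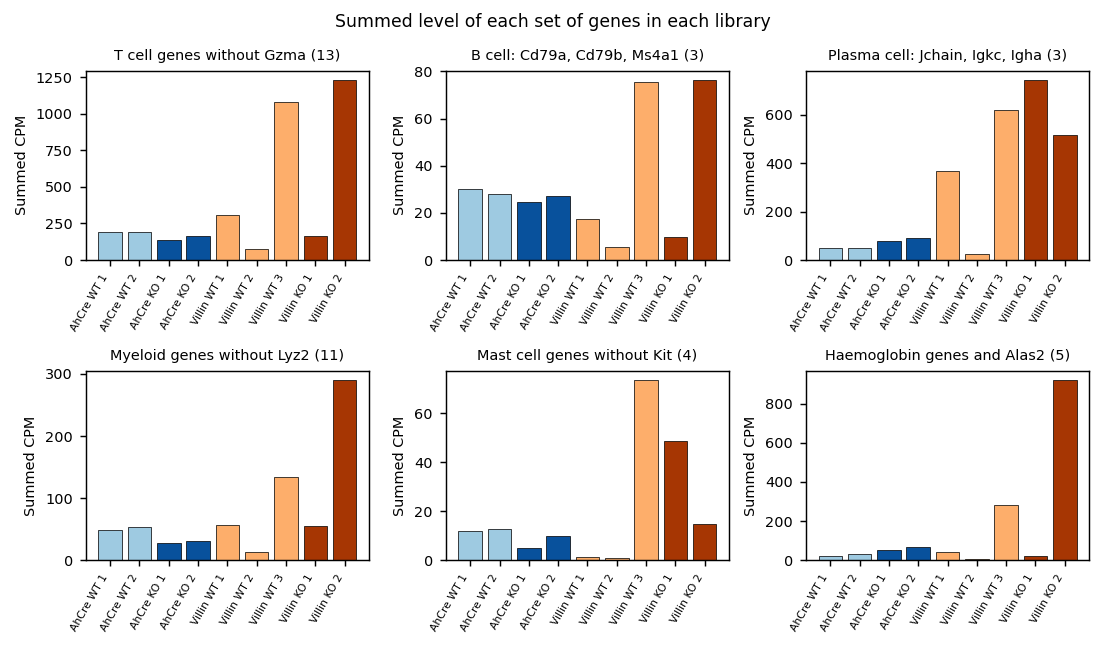
Summed CPM of each set of genes (bars from 0, 1 per library, coloured by group), with Gzma, Lyz2 and Kit left out of the T cell, myeloid and mast cell sums. T and B cell sums are high in Villin WT 3 and Villin KO 2 (1081 and 1232 CPM for T cells, 75.5 and 76.5 CPM for B cells), whereas the plasma cell sum is highest in Villin KO 1 (744 CPM).

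B cell genes followed the T cell order and plasma cell genes did not. Cd79a, Cd79b and Ms4a1 together made 30.2 and 28.0 CPM in AhCre WT, 24.7 and 27.1 CPM in AhCre KO, 17.3, 5.39 and 75.5 CPM in Villin WT and 9.63 and 76.5 CPM in Villin KO. Jchain, Igkc and Igha together made 49.7 and 49.6 CPM in AhCre WT, 77.4 and 92.3 CPM in AhCre KO, 366, 25.1 and 618 CPM in Villin WT and 744 and 516 CPM in Villin KO. Villin KO 1 was thus the highest library for the plasma cell sum and the second lowest for the B cell sum. Of the 6 tested members of the list, 0 passed in the KO comparisons fitted over all libraries with edgeR, DESeq2 or limma-voom, or had an unadjusted edgeR p under 0.05, and the median log2 fold change was 0.35 with AhCre and 0.65 with Villin-CreERT2. The Villin median was -1.22 without Villin KO 2 and 1.90 without Villin WT 3.

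Cd79a and Cd79b encode the signalling chains of the B cell receptor. Cd79a measured 13.5 and 13.0 CPM in AhCre WT against 9.94 and 9.89 CPM in AhCre KO, and 7.19, 0.770 and 18.5 CPM in Villin WT against 2.05 and 23.1 CPM in Villin KO. Cd79b measured 8.14 and 7.83 CPM in AhCre WT against 8.41 and 9.54 CPM in AhCre KO, and 6.47, 2.82 and 25.4 CPM in Villin WT against 4.92 and 33.2 CPM in Villin KO. The 2 chains ran in parallel across the Villin libraries. Ms4a1, which encodes CD20 and is lost in plasma cells, measured 8.52 and 7.16 CPM in AhCre WT against 6.31 and 7.63 CPM in AhCre KO, and 3.59, 1.80 and 31.6 CPM in Villin WT against 2.66 and 20.2 CPM in Villin KO. All 3 had their 2 highest values in Villin WT 3 and Villin KO 2, while with AhCre the KO libraries were lower for Cd79a, higher for Cd79b and overlapping for Ms4a1.

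Igha, the constant region of the IgA heavy chain and the main antibody class of the gut, lies at chr12:113254830-113260236 on the minus strand. It gave 15.2 and 16.5 CPM in AhCre WT against 33.0 and 32.0 CPM in AhCre KO. With the other driver it gave 171, 11.9 and 188 CPM in Villin WT against 360.4 and 203 CPM in Villin KO. Every KO library lay above every WT library of its own driver, although 171 and 188 CPM in 2 Villin WT libraries came close to 203 CPM in Villin KO 2. Its log2 fold change in edgeR was 1.04 (SE 0.81, adjusted p = 1.0) with AhCre and 1.19 (SE 0.72, adjusted p = 0.311) with Villin-CreERT2. In the AhCre-alone fit Igha rose by 1.06 (SE 0.18, adjusted p = 0.00115).

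Jchain joins IgA into dimers for transport across the epithelium. It gave 5.36 and 4.33 CPM in AhCre WT against 8.73 and 12.2 CPM in AhCre KO, and 38.1, 2.82 and 144 CPM in Villin WT against 98.3 and 79.3 CPM in Villin KO. Igkc, the constant region of the kappa light chain, gave 29.1 and 28.8 CPM in AhCre WT against 35.7 and 48.0 CPM in AhCre KO, and 157, 10.4 and 286 CPM in Villin WT against 285 and 234 CPM in Villin KO. Both genes had their AhCre KO libraries above their AhCre WT libraries and overlapping groups with Villin-CreERT2. The Jchain log2 fold change in edgeR was 1.11 (SE 1.03, adjusted p = 1.0) with AhCre and 0.53 (SE 0.89, adjusted p = 0.742) with Villin-CreERT2, and 1.13 (SE 0.26, adjusted p = 0.0118) in the AhCre-alone fit. Its Villin value ran from 0.08 without Villin WT 2 to 2.13 without Villin WT 3, and did not pass without any single library. There were 48.0 Jchain counts for each Cd79a count in Villin KO 1, 3.43 to 7.80 in the other Villin libraries and 0.333 to 1.24 in the AhCre libraries. Mzb1, a chaperone of antibody-secreting cells, had too few counts to be tested, at 0.0808 to 0.517 CPM with AhCre and 0 to 3.28 CPM with Villin-CreERT2.

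The WT crypts of the drivers were also compared. Igha was lower in AhCre WT than in Villin WT by a log2 fold change in edgeR of -2.96 (SE 0.83, adjusted p = 0.0488), the 1 member called in this comparison, where 3.53% of all genes were lower. The groups overlapped, since Villin WT 2 at 11.9 CPM lay below both AhCre WT libraries. Jchain, at -3.66 (SE 1.06, adjusted p = 0.0542), did not pass, nor did Kit, at 1.59 (SE 0.50, adjusted p = 0.0664). In the fit of WT libraries alone Kit was the 1 member called, as higher in AhCre WT, against 6.47% of all genes. Kit was also called by DESeq2 (14.0% of all genes) and limma-voom (23.8% of all genes), both over all libraries. The Igha call was lost in the fit of WT libraries alone (adjusted p = 0.0762). It was also lost on leaving out any AhCre library (either WT or either KO), Villin WT 1 or Villin WT 3, with adjusted p from 0.0798 to 0.385. Driver, inducing agent and sequencing depth all differ between these WT groups and cannot be told apart.

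Macrophage and myeloid genes had unlike values in the drivers, with a median difference of -2.29 between the KO effects (AhCre minus Villin, log2), beside 0.18 over all genes. That median was -0.94 without Villin KO 2 and -3.28 without Villin WT 3. With AhCre, 10 of 12 had a negative log2 fold change and the median was -0.77, whereas with Villin-CreERT2 11 of 12 were positive and the median was 1.65. In edgeR fitted over all libraries 0 of the 12 passed in either driver, with 2 lower in AhCre (1.72% of all genes) and 6 higher in Villin-CreERT2 (10.7% of all genes) at an unadjusted p under 0.05. In the AhCre-alone fit 6 of the 12 passed as lower (2.82% of all genes). Fitted over all libraries, DESeq2 called 3 higher with Villin-CreERT2 (Adgre1, C1qa and C1qb), against 6.75% of all genes. Limma-voom, also over all libraries, called 3 lower with AhCre (Csf1r, Cx3cr1 and Itgam), against 2.42% of all genes. Each of these 3 shares exon positions with another gene, and the part of those genes in their counts was not tested. The test of the difference between the KO effects called 0 of the 12 in edgeR, with 0.0738% of all genes called. As lower in AhCre, it called 3 in DESeq2 (1.75% of all genes) and 1 in limma-voom (0.782% of all genes). In edgeR 7 of the 12 had an unadjusted p under 0.05, all lower in AhCre (6.32% of all genes). Of the 12 genes, 11 were highest in Villin KO 2, and the Villin median was 0.57 without that library. Without Lyz2, their sum was 48.9 and 54.3 CPM in AhCre WT, 27.8 and 31.8 CPM in AhCre KO, 56.1, 13.7 and 134 CPM in Villin WT and 55.1 and 290.2 CPM in Villin KO.

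The summed level of stromal genes was likewise lower in AhCre KO. A list of 17 fibroblast, muscle and endothelial genes, of which 12 were tested, summed to 155 and 159 CPM in AhCre WT and 70.9 and 67.7 CPM in AhCre KO. It summed to 170, 29.9 and 21.0 CPM in Villin WT and 175 and 174 CPM in Villin KO. Over all 9 libraries Dcn, a fibroblast gene, made up 39.7% of the list's CPM. With AhCre, 9 of the 12 tested had a negative log2 fold change and 0 passed in edgeR. The 3 positive ones were the muscle genes Myh11 (1.0), Acta2 (0.11) and Des (0.07), so the lower sum does not hold for every cell type of the list. With Villin-CreERT2 8 had a positive one and 2 rose, against 3.33% of all genes called higher. None of the 17 was at 0 in an AhCre library, and 1 to 3 were at 0 in each Villin library, such as Pdgfra and Lum in Villin WT 3 and Cdh5 and Vwf in Villin KO 2. The part of stromal tissue in the myeloid values was not tested.

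Lyz2 needs its near-identical neighbour beside it. Lyz2 encodes the lysozyme of macrophages, and Lyz1 the lysozyme of Paneth cells, an abundant crypt cell, so reads that match both copies can be split or lost. The first 150 coding bases of each are shown to make their likeness visible, from GENCODE transcripts of GRCm38, with capitals at the bases that differ between the copies:
Lyz1: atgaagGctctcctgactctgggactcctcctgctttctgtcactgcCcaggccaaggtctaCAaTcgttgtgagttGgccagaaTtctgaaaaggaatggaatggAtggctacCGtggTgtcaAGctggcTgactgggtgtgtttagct
Lyz2: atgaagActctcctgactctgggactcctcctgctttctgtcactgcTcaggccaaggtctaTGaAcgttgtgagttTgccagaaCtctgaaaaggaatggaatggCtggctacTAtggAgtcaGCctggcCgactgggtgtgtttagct
Lyz1 lies at chr10:117287797-117292868 and Lyz2 at chr10:117277331-117282321, both on the minus strand. Their 447 coding bases are 95.1% identical, with 22 differences, 14 of them in the stretch shown. Of the 1267 windows of 50 bases in the Lyz2 transcript, 195 (15.4%) also occur in the Lyz1 transcript.

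Lyz2 read 105 and 113 CPM in AhCre WT against 46.5 and 59.1 CPM in AhCre KO. In the other driver it read 71.9, 2.44 and 48.2 CPM in Villin WT against 64.3 and 615 CPM in Villin KO. Lyz1 read 2878 and 2553 CPM in AhCre WT against 3592 and 3798 CPM in AhCre KO, and 2577, 631 and 4995 CPM in Villin WT against 116 and 2514 CPM in Villin KO. Lyz2 was lower in AhCre KO while Lyz1 was higher there, and Villin KO 2 had by far the most Lyz2. There were 0.00386 to 0.0441 Lyz2 counts per Lyz1 count in the AhCre and Villin WT libraries, and 0.557 and 0.244 in Villin KO 1 and 2. The log2 fold change of Lyz2 was -1.02 (SE 0.17, adjusted p = 0.000899) in the AhCre-alone fit with edgeR. In the fit of all libraries it was -1.04 (SE 1.05, adjusted p = 1.0) with AhCre and 3.06 (SE 0.96, adjusted p = 0.0753) with Villin-CreERT2.

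The complement C1q genes, made by tissue macrophages, were low in counts. C1qa measured 2.45 and 3.73 CPM in AhCre WT against 2.34 and 3.04 CPM in AhCre KO, and 4.85, 0.770 and 3.47 CPM in Villin WT against 4.92 and 21.9 CPM in Villin KO. C1qb measured 5.17 and 7.38 CPM in AhCre WT against 2.43 and 2.69 CPM in AhCre KO, and 7.01, 0.641 and 5.01 CPM in Villin WT against 8.40 and 41.3 CPM in Villin KO. C1qc measured 0.969 and 1.12 CPM in AhCre WT against 0.808 and 1.65 CPM in AhCre KO, and 1.98, 0.257 and 0.771 CPM in Villin WT against 1.84 and 3.09 CPM in Villin KO. The 3 chains of this molecule were highest in Villin KO 2, and C1qb alone had both AhCre KO libraries below the AhCre WT libraries. C1qb gave a log2 fold change in edgeR of -1.29 (SE 0.83, adjusted p = 1.0) with AhCre and 2.59 (SE 0.75, adjusted p = 0.0595) with Villin-CreERT2, and the latter was 1.01 (adjusted p = 0.432) without Villin KO 2. The difference between the drivers was -3.88 (SE 1.13, adjusted p = 0.171), and -2.30 (adjusted p = 0.233) without Villin KO 2.

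Csf1r, Adgre1 and Cd68 are further macrophage genes, and all had few counts. Csf1r, the receptor for colony-stimulating factor 1 on which macrophages depend, was 4.65 and 4.70 CPM in AhCre WT against 1.86 and 1.47 CPM in AhCre KO, and 1.98, 0.513 and 3.85 CPM in Villin WT against 3.48 and 10.6 CPM in Villin KO. Adgre1, which encodes F4/80, was 2.13 and 1.04 CPM in AhCre WT against 0.647 and 1.65 CPM in AhCre KO, and 0.539, 0.385 and 1.35 CPM in Villin WT against 1.02 and 10.2 CPM in Villin KO. Cd68, a lysosomal glycoprotein of macrophages, was 1.74 and 2.01 CPM in AhCre WT against 2.51 and 1.73 CPM in AhCre KO, and 2.52, 0.128 and 2.89 CPM in Villin WT against 1.43 and 8.48 CPM in Villin KO. Each was highest in Villin KO 2, and Csf1r was also lower in both AhCre KO libraries than in both AhCre WT libraries. Adgre1 gave log2 fold changes in edgeR of -0.48 (SE 0.90, adjusted p = 1.0) with AhCre and 2.95 (SE 0.88, adjusted p = 0.0648) with Villin-CreERT2, and the Villin value was 0.49 (adjusted p = 0.791) without Villin KO 2.

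Cx3cr1, the fractalkine receptor of resident macrophages, had the largest opposite values. It gave 2.26 and 2.09 CPM in AhCre WT against 0.404 and 0.173 CPM in AhCre KO. In the other driver it gave 0.899, 0 and 1.16 CPM in Villin WT against 1.84 and 4.94 CPM in Villin KO. The AhCre KO values rest on 5 and 2 counts, and Villin WT 2 had 0, which allows up to 0.385 CPM. Cx3cr1, C1qb and Itgam had KO below WT with AhCre and above WT with Villin-CreERT2, in each case without overlap. Of all genes, 25.1% had KO below WT with AhCre and 14.5% had KO above WT with Villin-CreERT2. The share with both orders was not computed. For Cx3cr1, singled out after its values were seen, the difference between the drivers in edgeR was -5.26 (SE 1.29, adjusted p = 0.138). That difference passed with DESeq2 (adjusted p = 0.0108) and with limma-voom (adjusted p = 0.0413).

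The integrin genes were measured through Itgam and Itgax. Itgam, which encodes CD11b, was 4.84 and 3.43 CPM in AhCre WT against 1.94 and 1.30 CPM in AhCre KO, and 5.21, 3.72 and 5.20 CPM in Villin WT against 5.74 and 11.3 CPM in Villin KO. Itgax, which encodes CD11c of dendritic cells and some macrophages, was 2.00 and 1.72 CPM in AhCre WT against 1.54 and 1.04 CPM in AhCre KO, and 1.08, 2.31 and 5.97 CPM in Villin WT against 0.819 and 4.47 CPM in Villin KO. Both were lower in AhCre KO, and Itgax in the Villin libraries overlapped between genotypes. In the AhCre-alone fit with edgeR the log2 fold change of Cx3cr1 was -2.84 (SE 0.53, adjusted p = 0.00247) and that of Itgam -1.33 (SE 0.35, adjusted p = 0.0288). That of Csf1r was -1.46 (SE 0.32, adjusted p = 0.00970), and that of C1qb -1.27 (SE 0.30, adjusted p = 0.0140).

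Fcer1g and Tyrobp encode the adaptor chains through which many activating receptors of myeloid and natural killer cells signal. Fcer1g was 11.5 and 13.5 CPM in AhCre WT against 5.01 and 7.37 CPM in AhCre KO, and 15.8, 3.59 and 41.4 CPM in Villin WT against 12.1 and 74.7 CPM in Villin KO. Tyrobp was 11.2 and 13.6 CPM in AhCre WT against 8.33 and 9.71 CPM in AhCre KO, and 14.2, 1.41 and 62.8 CPM in Villin WT against 13.5 and 99.2 CPM in Villin KO. Set beside the tuft sum, both genes were lower in AhCre KO, where that sum was 1168 and 1232 CPM, than in AhCre WT. Villin KO 1, with a tuft sum of 4473 CPM, had 12.1 CPM of Fcer1g and 13.5 CPM of Tyrobp, less than Villin WT 1. Their Villin levels were highest in Villin KO 2 and next highest in Villin WT 3, the 2 libraries that were also highest for the T cell genes. The part of tuft cells in the values of Fcer1g and Tyrobp was not tested.

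Kit was the 1 member that passed in edgeR's KO comparisons fitted over all libraries. It encodes the receptor for stem cell factor, needed by mast cells and also found on some epithelial crypt cells, and lies at chr5:75574916-75656722 on the plus strand. Kit measured 30.3 and 30.7 CPM in AhCre WT against 89.5 and 78.0 CPM in AhCre KO. With Villin-CreERT2 it measured 4.85, 12.4 and 12.9 CPM in Villin WT against 73.1 and 20.1 CPM in Villin KO. All KO libraries exceeded the WT libraries of their driver. In edgeR it rose with Villin-CreERT2 by 2.20 (SE 0.50, adjusted p = 0.0293) on the log2 scale and on average over the drivers by 1.83 (SE 0.37, adjusted p = 0.0366). With AhCre the value was 1.46 (SE 0.54, adjusted p = 1.0), and in the AhCre-alone fit 1.47 (SE 0.17, adjusted p = 1.37e-05).

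The Villin call rested on few libraries. Without Villin KO 1 the log2 fold change was 1.01 (adjusted p = 0.242). Leaving out AhCre WT 2, either AhCre KO library or Villin WT 1 also lost the call (adjusted p from 0.0504 to 0.0845), as did limma-voom (adjusted p = 0.109). The average of Kit passed when Villin WT 3 (adjusted p = 0.0445) or Villin KO 2 (adjusted p = 0.00127) was left out, and did not pass without any of the other 7 libraries, with values from 1.24 to 1.99. Within each driver the KO library with the higher tuft sum had the higher Kit, but other libraries had another order. Villin WT 1 had a higher tuft sum than Villin WT 2 (145 against 99.7 CPM) and less Kit. Both AhCre WT libraries, with tuft sums of 205 and 217 CPM, had more Kit than Villin KO 2, with 638 CPM. The part of tuft cells in the Kit values was not tested.

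The granule genes of mast cells had another order of libraries than Kit. Mcpt1 and Mcpt2 encode the mucosal mast cell proteases, and their first 150 coding bases (GRCm38, plus strand) are shown because the copies are alike at the start of the coding sequence, with capitals at the differing bases:
Mcpt1: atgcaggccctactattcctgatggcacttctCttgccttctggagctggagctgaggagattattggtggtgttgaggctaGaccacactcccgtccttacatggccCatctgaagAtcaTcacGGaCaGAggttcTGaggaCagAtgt
Mcpt2: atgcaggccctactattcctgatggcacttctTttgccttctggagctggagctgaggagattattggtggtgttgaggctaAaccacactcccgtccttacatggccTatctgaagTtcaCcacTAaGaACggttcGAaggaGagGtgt
Mcpt1 lies at chr14:56017971-56020384 and Mcpt2 at chr14:56042041-56044642. There were 14 differences in these 150 bases, and 0 of the 1012 windows of 50 bases in the Mcpt2 transcript occurred in the Mcpt1 transcript.

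Mcpt1 was 9.17 and 9.62 CPM in AhCre WT against 2.83 and 6.42 CPM in AhCre KO, and 0.899, 0.128 and 48.7 CPM in Villin WT against 34.4 and 8.79 CPM in Villin KO. Mcpt2 was 2.00 and 2.31 CPM in AhCre WT against 1.37 and 2.69 CPM in AhCre KO, and 0.359, 0.128 and 20.6 CPM in Villin WT against 8.60 and 2.62 CPM in Villin KO. Cpa3, the carboxypeptidase of mast cell granules, was 0.581 and 0.373 CPM in AhCre WT against 0.404 and 0.520 CPM in AhCre KO, and 0, 0.513 and 3.28 CPM in Villin WT against 3.48 and 2.47 CPM in Villin KO. The 2 proteases were highest in Villin WT 3 and Villin KO 1, a different pair from that of the T cell genes, and were at or below 0.899 CPM in Villin WT 1 and 2. Cpa3 gave a log2 fold change in edgeR of -0.06 (SE 1.12, adjusted p = 1.0) with AhCre and 1.28 (SE 0.92, adjusted p = 0.401) with Villin-CreERT2, and the latter was 3.29 (adjusted p = 0.0415) without Villin WT 3. Fcer1a, the alpha chain of the IgE receptor, had too few counts to be tested, at 0.173 to 0.522 CPM with AhCre and 0 to 2.05 CPM with Villin-CreERT2. Without Kit, the mast list summed to 11.9 and 12.8 CPM in AhCre WT and 4.85 and 9.80 CPM in AhCre KO. It summed to 1.26, 1.03 and 73.6 CPM in Villin WT and 48.6 and 14.7 CPM in Villin KO, and Mcpt1 made up 67.8% of it. With AhCre the sum and Mcpt1 had an order opposite to that of Kit, while Mcpt2 and Cpa3 overlapped between the genotypes.

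**Figure D4:**
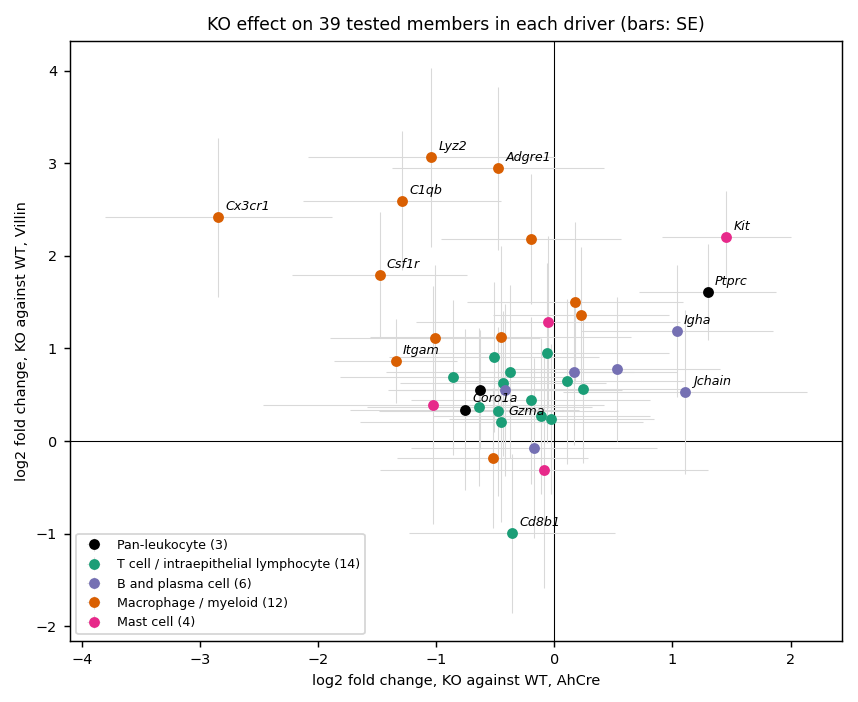
Log2 fold change of KO against WT with AhCre (horizontal axis) and with Villin-CreERT2 (vertical axis) for the 39 tested members, coloured by lineage, with bars of 1 standard error from edgeR's fit to all 9 libraries. Myeloid genes lie mostly left of 0 and above 0 (medians -0.77 and 1.65), and Ptprc and Kit lie above 0 on both axes.

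Across all lineages, the order of the libraries differed between the drivers. With AhCre, 19 of the 39 tested members (48.7%) had both KO libraries below both WT libraries, an order held by 25.1% of all genes, and 7 had KO above WT, against 23.4% of all genes. With Villin-CreERT2, 7 members had both KO libraries above all WT libraries (14.5% of all genes) and 0 had them below (19.8% of all genes). Ptprc, Igha and Kit were the 3 with KO above WT in both drivers. The share of all genes with KO above WT in both drivers was not computed.

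Wider lists of the same lineages were read from the same fit. Of 40 further T cell and intraepithelial lymphocyte genes, 39 were tested and 0 passed in either driver or on average, with 0 at an unadjusted p under 0.05 with AhCre and 1 with Villin-CreERT2. DESeq2 called 1 of them with Villin-CreERT2 (Bcl11b, lower, against 4.01% of all genes) and limma-voom 1 with AhCre (Klre1, higher, against 3.19%), both outside the naming rule and named after their values were seen. Ctsw, a cathepsin of cytotoxic cells and the most abundant of them, was 15.2 and 16.6 CPM in AhCre WT against 8.81 and 9.80 CPM in AhCre KO, and 13.8, 4.87 and 72.1 CPM in Villin WT against 9.42 and 66.6 CPM in Villin KO, high in the same 2 Villin libraries as Gzma. Trac and Klre1, both called lower in AhCre WT than in Villin WT, were the 2 of this list that passed there, where 3.53% of all genes were called lower.

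Of 22 further B and plasma cell genes, 19 were tested, and 2 rose with Villin-CreERT2, where 3.33% of all genes were called higher. Spib, an ETS transcription factor of B cells that is also expressed in tuft and M cells, was 22.7 and 24.0 CPM in AhCre WT against 98.4 and 84.6 CPM in AhCre KO, and 11.7, 6.16 and 13.3 CPM in Villin WT against 244 and 33.3 CPM in Villin KO. In edgeR it rose by 3.75 (SE 0.62, adjusted p = 0.00975) with Villin-CreERT2 and by 2.86 (SE 0.46, adjusted p = 0.0108) on average, and its Villin value was 1.71 (adjusted p = 0.0712) without Villin KO 1 and 3.85 (adjusted p = 0.0520) without Villin WT 1. The average of Spib did not pass if either AhCre WT library, Villin WT 1 or Villin WT 2 was left out (adjusted p from 0.0506 to 0.0913). Ighg3, an IgG constant region, was 0.452 and 0.447 CPM in AhCre WT against 1.13 and 0.781 CPM in AhCre KO, and 0.359, 0.257 and 0.385 CPM in Villin WT against 2.46 and 2.16 CPM in Villin KO. Its Villin WT values lay below the levels that 3 counts corresponded to in those libraries (0.539, 0.385 and 0.578 CPM). From this low base Ighg3 rose with Villin-CreERT2 by 2.77 (SE 0.65, adjusted p = 0.0318) in edgeR. That call was lost in limma-voom (adjusted p = 0.214), in the fit of Villin libraries alone (adjusted p = 0.103) and on dropping any of the 4 AhCre libraries, Villin WT 1 or Villin KO 1 (adjusted p from 0.0630 to 0.113).

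Of 29 further myeloid genes, 18 were tested, and 2 rose with Villin-CreERT2, where 3.33% of all genes were called higher. Siglecf, a sialic-acid-binding receptor of eosinophils that tuft cells also carry, was 10.8 and 13.0 CPM in AhCre WT against 72.8 and 70.2 CPM in AhCre KO, and 5.93, 3.85 and 18.1 CPM in Villin WT against 448 and 54.6 CPM in Villin KO. In edgeR it rose by 4.77 (SE 0.77, adjusted p = 0.00908) with Villin-CreERT2 and by 3.68 (SE 0.57, adjusted p = 0.00959) on average, and its highest library, Villin KO 1, was that of the tuft sum. Its Villin value was 2.60 (adjusted p = 0.0712) without Villin KO 1 and 4.54 (adjusted p = 0.0541) without Villin WT 1, and the average did not pass if either AhCre WT library or Villin WT 1 was left out (adjusted p from 0.0716 to 0.0856). S100a9, a neutrophil calcium-binding protein, was 3.42 and 3.36 CPM in AhCre WT against 1.54 and 1.56 CPM in AhCre KO, and 0.719, 0 and 0.193 CPM in Villin WT against 0.819 and 11.6 CPM in Villin KO. In edgeR it rose by 4.43 (SE 1.06, adjusted p = 0.0334) with Villin-CreERT2, but its value was 1.51 (adjusted p = 0.428) without Villin KO 2, the call was lost with limma-voom (adjusted p = 0.186), and on leaving out 1 library it passed only without Villin KO 1 (adjusted p = 0.0258). Of 13 further mast cell genes only 2 had enough counts for a test, and 0 of those passed or had an unadjusted p under 0.05 in edgeR, and 0 passed in DESeq2 or limma-voom. Among them Hdc, the histamine-synthesising enzyme and the most abundant, was 1.16 and 1.27 CPM in AhCre WT against 0.566 and 1.04 CPM in AhCre KO, and 4.31, 2.18 and 0.963 CPM in Villin WT against 2.46 and 2.31 CPM in Villin KO.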

How the data were processed

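Polyadenylated RNA of 9 crypt preparations was sequenced after Smart-seq2 amplification of 2 ng of RNA, per the labels' protocols, a method that keeps no strand. The authors deposited 1 table of whole read counts per gene and library, with no normalization. STAR 2.7, featureCounts and DESeq2 1.20, with mm10/GRCm38, are named in the submitters' processing notes. All 55341 gene names matched GENCODE's GRCm38 annotation, which gave positions and exon lengths, and coding sequences came from its transcripts.

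Groups came from the titles. Counts of all 9 libraries were fitted together, with 1 mean per group, by edgeR 4.0.16 in R 4.3.3 (TMM, filterByExpr, quasi-likelihood test, Benjamini-Hochberg adjustment over 16250 genes), and CPM was computed from the same scaling. The biological coefficient of variation was 0.332, with 5 residual degrees of freedom. The comparisons were KO against WT in each driver, their average and difference, and AhCre WT against Villin WT. The scripts were tested on simulated data. Alternatives were DESeq2 1.42.0, limma-voom 3.58.1, DESeq2 size factors, 2 other count filters, each driver alone, a replicate block, and leaving out each library. A crossed block was added after seeing the data.

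The members and lists were chosen with earlier results of these data known. Values per library were given for members with a mean of at least 1 CPM. Fold changes, SEs and adjusted p were given for members called in any comparison and the 2 per lineage with the smallest unadjusted p in a driver. From the wider lists up to 4 called genes were named, or otherwise the most abundant. Lyz2, Cx3cr1, Itgam, Csf1r, Cd7, Bcl11b, Klre1 and Trac were given statistics or named outside this rule, after their values were seen. Of the antibody and T cell receptor segments the 2 with most counts per class were eligible. Limits given for a count of 0 assume 3 counts and cover counting error only.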

Additional observations from a re-analysis of the deposited data

How the results depend on the processing

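Counts of members passing the threshold moved with the fit, and the share of all genes called is given in brackets. With AhCre, the count of 0 became 5 with limma-voom (5.61%) and 12 with AhCre fitted alone (6.43%), and stayed at 0 without each library. With Villin-CreERT2, the count of 1 (6.21%) became 2 with DESeq2 size factors (6.72%), 8 without a count filter (3.40%), 5 with DESeq2 (10.8%) and 0 with limma-voom (0.849%), and ran from 0 to 7 without single libraries (7 without Villin WT 3, with 8.66% of all genes). For the average, 1 (1.17%) became 4 without a filter (1.15%), 2 with DESeq2 (2.7%) and 2 with limma-voom (1.64%), and ran from 0 to 2. For the difference between drivers, 0 (0.0738%) became 4 without a filter (0.726%), 3 with DESeq2 (2.34%) and 1 with limma-voom (0.886%), and stayed at 0 without each library. For the WT crypts, 1 (7.58%) became 11 without a filter (4.89%), 3 with DESeq2 (14.0%) and 5 with limma-voom (23.8%), and ran from 0 to 3. Without a filter 46857 genes were tested, and the cause of the other changes was not tested.

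With a replicate block, the Villin count was 3 (1.85%) and the average 2 (0.843%), and Kit was then not called (adjusted p = 0.108 and 0.147, edgeR) while Ptprc was (adjusted p = 0.0198 and 0.0118). Same-numbered libraries deviated together with a correlation of -0.107 with AhCre and of 0.061 and 0.216 with Villin-CreERT2, so the numbers were not taken to pair the samples. With the AhCre numbers crossed, a choice made after seeing the data, the counts were 0, 2, 1 and 0 for AhCre, Villin, average and difference.

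Cd8b1 with Villin-CreERT2 changed sign to 0.28 under both blocks. Hdc with Villin-CreERT2 (-0.06) became 0.05 with DESeq2 size factors, 0.05 with DESeq2, 0.11 with limma-voom and 0.07 with Villin fitted alone. Leaving out single libraries also turned the sign of some log2 fold changes: with AhCre, Adgre1 ran from -1.28 to 0.13, Cd8b1 from -0.89 to 0.44 and Cpa3 from -0.32 to 0.30. With Villin-CreERT2, Cd8b1 ran from -1.54 to 0.27, Ctsw from -1.68 to 2.05, Hdc from -0.42 to 0.55, Il2rb from -0.25 to 2.69 and Laptm5 from -0.90 to 1.27. Of the log2 fold changes of named genes under an alternative, 604 kept direction and side of the threshold, 50 newly passed, 59 no longer passed and 17 changed sign. Depth limits the low genes most: 3 counts corresponded to 0.615 CPM in Villin KO 1, near the levels of Cd2 and Cd8b1 in that library.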

Other observations

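Antibody variable segments gave a second view of the plasma cell reads. Of 160 kappa variable genes, 41 to 110 had a count in a library, with 62 counts in all in Villin WT 2 and 970 in Villin KO 2. Igkv1-110, the segment with the most counts, had 184 of 771 kappa segment counts in Villin KO 1 (23.9%) and 1.61% to 4.71% in the other libraries. Igkv6-23 had 0 counts in Villin KO 1 and 106 in Villin WT 3. The heavy chain segments Ighv1-64 and Ighv6-3 likewise had 11.1% and 10.5% of the heavy segment counts in Villin KO 1 and at most 4.26% in any other library. Villin KO 1 was also the library with the highest Igha.

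T cell receptor segments were sparse, and their values are raw counts, not scaled for library depth. Alpha segments had most raw counts in AhCre WT 1 (61), with 28 in Villin WT 2, 32 in Villin WT 3 and 25 in Villin KO 2. AhCre WT 1 was also the deepest library, at 12377921 counts against 6455098 in Villin WT 3, so this order is not one of levels. Beta segments had 91 counts in Villin WT 3 and 89 in Villin KO 2, against 9 to 44 in the other libraries. The gamma segment Tcrg-V7, typical of intestinal intraepithelial gamma-delta cells, had 67 counts in Villin WT 3 and 107 in Villin KO 2, against 2 to 28 in the other libraries. Delta segments had 0 counts in Villin WT 1, Villin WT 2 and Villin KO 1, and 22 in Villin KO 2.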
